A study of Mus musculus with 20 samples.

Results

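The nuclear genes of the mitochondrial respiratory chain and of ATP synthase were followed in 2 bone marrow populations of mice lacking Bcor, Dnmt3a or both. The members are the genes whose symbols start with Nduf followed by a, b, c, s or v, with Uqcr, with Atp5, or with Cox4 to Cox8 and a letter from a to c, plus Sdha, Sdhb, Sdhc and Sdhd, at a mean of at least 1 FPKM (a level per transcript length and library size) over the 10 libraries of a cell type. Of 24315 genes listed per table, 90 had such a symbol and 84 reached that level, the same 84 in LSK and in MEP. They made 84 of the 11952 genes tested in LSK and of the 10933 tested in MEP. By symbol, 35 encode subunits of complex I, 4 of complex II, 8 of complex III, 14 of complex IV and 14 of complex V, and 9 are not subunits, 7 of them Ndufaf assembly factors of complex I and the other two Atp5s and Atp5sl. Ndufa4, named for complex I, was counted with complex IV, where its product is now placed.

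The respiratory chain passes electrons from NADH through complex I, and from succinate through complex II, to ubiquinone, then through complex III and cytochrome c to complex IV, which reduces oxygen. Complexes I, III and IV pump protons across the inner mitochondrial membrane, and complex V, the ATP synthase, makes ATP as the protons return. Quiescent blood stem cells are known to rely little on this pathway, while developing erythroid cells, which also build heme in their mitochondria, use it heavily. The core subunits encoded by the mitochondrial genome were not analysed here.

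All mice were C57BL/6. The LSK population (Lin-Sca1+cKit+, enriched for stem cells and multipotent progenitors) and the MEP population (megakaryocyte-erythroid progenitors, Lin-Sca1-Kit+CD34- with low or no Fc receptor) were sorted from bone marrow, and polyadenylated RNA was sequenced. Each population had 3 WT, 3 Dnmt3a-/-, 2 Bcor-/- and 2 Bcor-/-Dnmt3a-/- libraries, and LSK and MEP came from the same labelled mice. The knockouts carry floxed alleles cut by Mx1-Cre, which interferon or pIpC switches on and which acts in blood cells and beyond them. The study describes its WT controls as mice with untargeted genes and the sequenced double knockout cells as leukemic. It calls the Dnmt3a deletion partial in the single knockout and complete in leukemic double knockout mice, and states 3 mice per genotype for LSK. Every mutant library label carries Cre and no WT label does. WT and Dnmt3a-/- labels share the tag 3A_XY, which the other genotypes lack. The tags are not explained, and an effect of Cre or of mouse line cannot be told apart from genotype. The labels themselves give no age, stage or time after pIpC, and 1 of the 2 Bcor-/- libraries per population carries the names of 2 mice, which were taken as pooled.

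Several facts of the libraries bear on the results. Bcor FPKM in LSK was 29.6 to 32.4 in WT. It was 22.4 and 23.2 in Bcor-/-, and in the double knockout (Bcor-/-Dnmt3a-/-) 24.0 and 37.5. Dnmt3a FPKM in LSK was 16.1 to 19.9 in WT, 11.3 to 16.9 in Dnmt3a-/- and 10.4 and 10.9 in the double knockout. In MEP, Bcor was at 21.35 to 26.9 FPKM in WT, 19.53 and 22.43 in Bcor-/- and 19.56 and 26.71 in the double knockout. Dnmt3a in MEP was at 5.489 to 6.641 FPKM in WT and 2.563 to 5.399 in Dnmt3a-/-. In the double knockout it was at 6.852, above every WT library, and 3.435. Both alleles delete only some exons, so a level over the whole gene cannot by itself check the labels. The paper describes the Bcor mRNA left after deletion as extremely unstable, and by reverse transcription and PCR it detected none in Bcor-/- LSK. It also reports loss of Bcor protein in lineage-negative Bcor-/- marrow cells by western blot. The second double knockout LSK library, at 37.5 FPKM of Bcor, lay above every WT library. The 2 double knockout libraries correlated with each other at r = 0.849 in LSK and 0.815 in MEP on the log2 scale across genes, against at least 0.971 for libraries within the other genotypes. The 10 LSK marker genes summed to 183 and 381 FPKM in double knockout LSK and 1163 to 1371 in WT, with Kit at 47.7 and 19.4 against 148 to 174 FPKM, while the 11 listed erythroblast genes summed to 6870 and 24420 FPKM against 450.3 to 575, with no gene of either list at 0 in those libraries. Of the 10 LSK markers 8 fell there. Of the genes for the sorted surface proteins Kit fell, while Ly6a, which encodes Sca1, was at 63.5 and 220.2 FPKM against 59.8 to 70.7 in WT and was not called. The markers thus go partly against the label, and these cells are named below by the sort. Double knockout MEP libraries held 5074 and 100200 FPKM of erythroblast genes (2014 to 3156 in WT, 1 gene listed at 0 in the second double knockout library) and 6855 and 15360 FPKM of the 10 neutrophil and monocyte genes (314.5 to 752.5 in WT). Kit was at 38.1 and 20.25 FPKM there against 77.0 to 83.5 in WT MEP, and Ly6a at 17.8 and 1.87 against 0 to 0.79. The MEP label is thus also partly contradicted, and these cells too are named by the sort. Read totals were not used here, so depth is unknown.

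In WT, the members were transcribed at high levels in both populations. Their FPKM summed to 10220 ± 325 (SD, n = 3) in LSK, 2.36% to 2.44% of all FPKM, and to 17660 ± 2095 (SD, n = 3) in MEP, 3.76% to 4.2% of all FPKM. The tables were normalized separately and the populations are set side by side without a test. In both, Atp5b, the catalytic beta subunit of ATP synthase, was the highest, at a WT mean of 664.5 FPKM in LSK and 1369 FPKM in MEP. The median member stood at 95.7 FPKM in LSK and 152 FPKM in MEP. Below 10 FPKM stood 9 members in LSK and 6 in MEP. Some of these, such as Ndufab1 (the mitochondrial acyl carrier protein, 1.15 FPKM in WT LSK) and Atp5l (subunit g of ATP synthase, 2.70 FPKM), are subunits that cells with the complex need. Reads that fit near-identical copies elsewhere in the genome can be divided by the authors' counting, so such levels are uncertain. The 6 genes under the minimum were Atp5g2, Cox7b2, Cox8b, Cox8c, Ndufa4l2 and Ndufs5. Cox7b2, Cox8b and Cox8c were listed at 0 in all 20 libraries and Ndufs5 at no more than 0.0014 FPKM, and such entries may be failed estimates.

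Loss of Bcor alone gave the most calls among the members in LSK, and all were upward. In Bcor-/- LSK, 17 of 84 members rose and none fell, where a gene is called past 1.5-fold with a limma p below 0.05 before adjustment. Over all tested genes, 7.20% rose and 6.03% fell by the same rule. The median member was 0.41 higher on the log2(FPKM + 1) scale (1.33-fold), while the median of all tested genes was -0.01. With the Benjamini-Hochberg adjustment over all genes, 14 members passed an adjusted p of 0.05 in the upward direction, against 4.50% of all genes. In 64 of the 84 members both Bcor-/- libraries lay above every WT library, against 27.1% of all genes. The members summed to 12870 and 14030 FPKM in the Bcor-/- LSK libraries and to 10000 to 10590 in WT. Fewer cells of a type and less RNA per cell cannot be told apart in these bulk libraries.

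Complex I held 9 of the 17 risen members. All 35 of its members had a positive log2 fold change and 31 had both libraries above every WT library. Ndufb3, an accessory subunit of the membrane arm, was listed at 185 FPKM in each Bcor-/- library and at 85.3, 111.7 and 84.0 in WT. Its libraries did not overlap with WT, and its log2 fold change was 0.98 (SE 0.191, adjusted p = 0.0242). Ndufb7, a further membrane-arm subunit, stood at 222 and 272 FPKM against 155.9, 160.3 and 144.6 in WT (log2 fold change 0.68, adjusted p = 0.0241). Ndufa2 was at 149 and 165 FPKM against 90.5, 99.4 and 103 (0.68, adjusted p = 0.0247). Both Bcor-/- libraries lay above all WT and all Dnmt3a-/- libraries for these 3 genes. Ndufs6 (0.75), Ndufa5 (0.68), Ndufb2 (0.71), Ndufa1 (0.71), Ndufs7 (0.62) and the low-listed Ndufab1 (1.08) completed the list of called complex I members. The core subunits Ndufs1 and Ndufv1, which carry iron-sulfur clusters and the NADH site, had log2 fold changes of 0.41 and 0.33, below the fold threshold.

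In complex III, 3 of 8 members rose in Bcor-/- LSK. Uqcrq, a small subunit, stood at 180.4 and 176 FPKM in Bcor-/- and at 75.8, 104 and 109 in WT, which gave a log2 fold change of 0.90 (SE 0.172, adjusted p = 0.0239), the smallest p among the members. Uqcr10 (0.73) and Uqcr11 (0.72) were the others. The core proteins Uqcrc1 and Uqcrc2 had log2 fold changes of 0.48 and 0.39 with both libraries above WT, and the Rieske iron-sulfur protein Uqcrfs1 had 0.07 with libraries that overlapped WT. Of the 14 complex IV members, Cox7b (0.68), Cox8a (0.65) and Cox6a1 (0.59) rose. Ndufa4 did not share in it, at 504 and 434 FPKM against 491, 486 and 456 in WT. Of the 14 ATP synthase members, 1 rose, Atp5k (subunit e, 313 and 336.5 FPKM against 219.9, 210.2 and 213 in WT, log2 fold change 0.60, adjusted p = 0.0600), although all 14 had a positive value and 11 lay above WT in both libraries. None of the 4 complex II members was called, with log2 fold changes of 0.05 for the catalytic flavoprotein Sdha to 0.49 for the membrane anchor Sdhd. Among the 9 that are not subunits, the assembly factor Ndufaf3 rose (23.6 and 26.7 FPKM against 8.53, 11.7 and 14.9, log2 fold change 1.07, adjusted p = 0.0247).

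The count of risen members depended on the scaling and on a joint correction for transcript length and GC content, while its direction did not. The number called was 7 with quantile normalization, 5 with libraries scaled to an equal sum of FPKM without globins, and 8 after the joint correction, with 75, 73 and 77 of 84 members positive. The members' median was 0.28, 0.27 and 0.30 in the same order, and that of all genes -0.02, -0.14 and 0.00. Most members are short: their median longest transcript was 1231.5 bases, against 3297 for all genes tested in LSK. Among the shortest of 4 equal classes of genes, up to 2139 bases, the median log2 fold change in Bcor-/- LSK was 0.13 over all genes and 0.41 over the 66 members in it. Markers of other cells moved with the result. Neutrophil and monocyte genes summed to 16890 and 24060 FPKM in Bcor-/- LSK and to 3389, 13250 and 3444 in WT, 4 of 10 having risen, and LSK markers summed to 884 and 599.5 FPKM against 1163 to 1371. The second WT library, with 13250 FPKM of the neutrophil genes, had a members' median of 0.07 relative to the WT mean, against 0.35 and 0.46 in the Bcor-/- libraries. These genes stood in other proportions in it than in Bcor-/-. S100a8 was at 4389 FPKM in that WT library and at 2796 and 2648 in Bcor-/-. Mpo was at 1532 FPKM in that WT library, at 788.3 and 784.9 in the other WT libraries and at 4710 and 8426 in Bcor-/-. Camp was closer, at 723.5 FPKM in that WT library and at 558.1 and 618.8 in Bcor-/-. MEP markers summed to 819 and 1154 FPKM against 498 to 620.1, lymphoid genes to 516 and 644 against 244 to 294, and erythroblast genes to 534 and 650.5 against 450.3 to 575. Their part in the result was not tested.

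**Figure D1:**
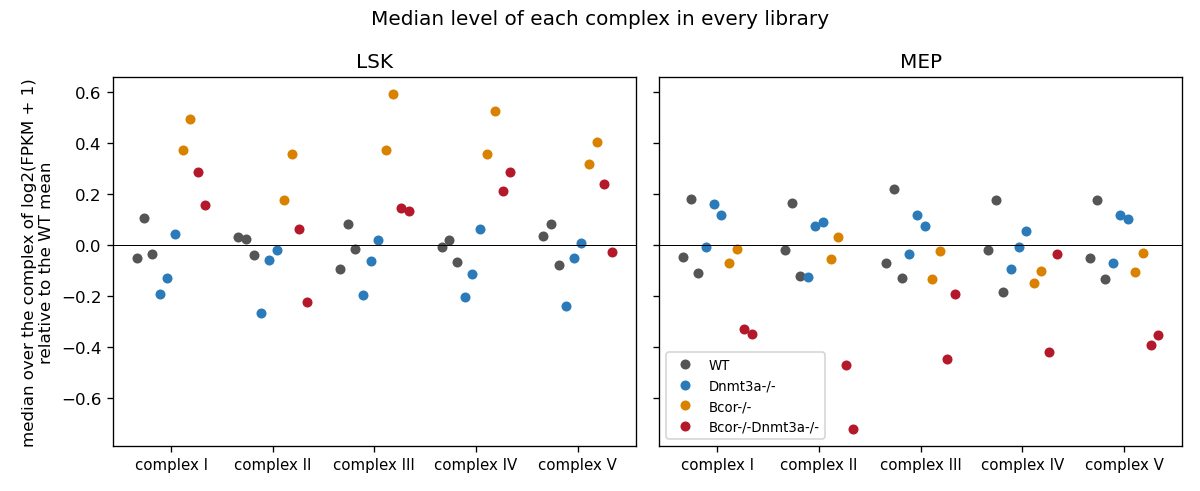
Median over the members of each complex of log2(FPKM + 1) relative to the WT mean, 1 point per library, LSK on the left and MEP on the right, colored by genotype. In LSK both Bcor-/- points lie above every WT point in each complex; in MEP both Bcor-/-Dnmt3a-/- points lie below every WT point in complexes I, II, III and V, and 1 of them overlaps WT in complex IV.

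In Bcor-/- MEP few members were called. Ndufab1 rose and Cox7a1 fell, against 1.23% and 1.53% of all genes that rose and fell, and the median log2 fold change was -0.06. Both genes are listed at low levels: Ndufab1 at 8.26 and 10.2 FPKM against 3.29, 5.70 and 5.87 in WT (adjusted p = 0.580), and Cox7a1, a muscle isoform of complex IV, at 0 in both Bcor-/- libraries against 0.773 to 1.47. Neither passed the adjusted p, and 1 of the 2 calls was lost without either Bcor-/- library, the first or second WT library or the third Dnmt3a-/- library. The difference between the effects in LSK and MEP was tested on the LSK minus MEP difference of each mouse, over 10773 genes. Of the 84 members, 27 had a higher Bcor-/- effect in LSK and 0 a lower one by the call rule, against 6.18% and 5.14% of all genes, and 50 had an unadjusted p under 0.05, all of them in the same direction. With the adjusted p, 2 passed, Ndufb3 (difference 0.97, adjusted p = 0.0297) and Ndufb2 (0.87, adjusted p = 0.0458). By scaling, the 27 became 10 with quantile normalization and 9 with the equal sum of FPKM without globins, and after the length and GC correction it was 10. It was 17 without the second WT mouse and 14 without the second Bcor-/- mouse.

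In Bcor-/-Dnmt3a-/- LSK, few members were called. Of 84, 2 rose (Ndufab1 and Ndufaf3) and 2 fell (Ndufa4 and Atp5s), fewer in share than the 15.0% and 13.3% of all genes that did. At the adjusted p with no fold limit, 7 were higher, against 14.9% of all genes, and 3 lower, against 14.2%. Ndufa4 showed the largest fall of any member in this population. It was listed at 193 and 233 FPKM in double knockout LSK, against 491, 486 and 456 in WT, 416, 466 and 481 in Dnmt3a-/- and 504 and 434 in Bcor-/-. Both double knockout libraries lay well under all 8 others (log2 fold change -1.17, SE 0.133, adjusted p = 0.00032). Ndufaf3 stood at 21.4 and 17.0 FPKM against 8.53, 11.7 and 14.9 in WT (0.69, adjusted p = 0.0356). Atp5s, which is not a subunit of the synthase itself, was at 7.47 and 4.60 FPKM against 8.97 to 12.5 (-0.75, adjusted p = 0.0223).

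Other members with an adjusted p under 0.05 in double knockout LSK changed by less than the fold limit. Ndufb10 (0.57), Cox6a1 (0.51), Ndufs3 (0.50), Cox7a2l (0.48), Ndufa2 (0.46) and Ndufb7 (0.46) were higher, and Sdha was lower (-0.38), at 111 and 97.2 FPKM, below every WT library. Cox7a2l was at 329 and 276 FPKM against 215, 202 and 231 in WT. Of the other core subunits, Ndufs1 (68.9 and 47.1 FPKM against 37.0 to 45.1, log2 fold change 0.46, adjusted p = 0.0873), Sdhb (0.29) and Cox5b (0.18) had both libraries above every WT library without a call. The same held for 28 of 84 members and for 3053 of 11952 tested genes. Ndufv1, Uqcrc1, Uqcrfs1 and Atp5b overlapped WT, and so did Cox5a (165 and 135.6 FPKM against 181.7, 192.6 and 144.1) and Atp5a1 (466.5 and 418.6 against 504.7, 497.1 and 459.4). Ndufc2, with the lowest complex I value (-0.26), was at 103.0 and 68.6 FPKM against 97.1 to 103.2. The median over all members was 0.14, but it was -0.02 with quantile normalization and 0.05 with median centring, so no direction is given for the whole set here. The 2 libraries also differed from each other. Cox6a2, the heart and skeletal muscle form of a complex IV subunit, was listed at 3.83 FPKM in the first and 67.1 in the second, against 3.53, 8.43 and 2.0 in WT, and 9 of 84 members were over 1.5-fold apart between the 2 libraries, compared with 1 between the Bcor-/- LSK libraries. The called members numbered 9 without the first double knockout library, 7 without the second and 7 without the second WT library. In these libraries lymphoid genes summed to 1512 and 1294 FPKM against 244 to 294 in WT, macrophage genes to 1378 and 106 against 53.4 to 308, and neutrophil and monocyte genes to 8398 and 8792 against 3389 to 13250. MEP markers summed to 938 and 703 FPKM against 498 to 620.1, with 6 of 10 higher and 3 lower by the call rule, and megakaryocyte genes to 14.3 and 49.5 against 97.4 to 117, with 4 of 6 tested lower. The part of these and of the erythroblast genes in the result was not tested.

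**Figure D2:**
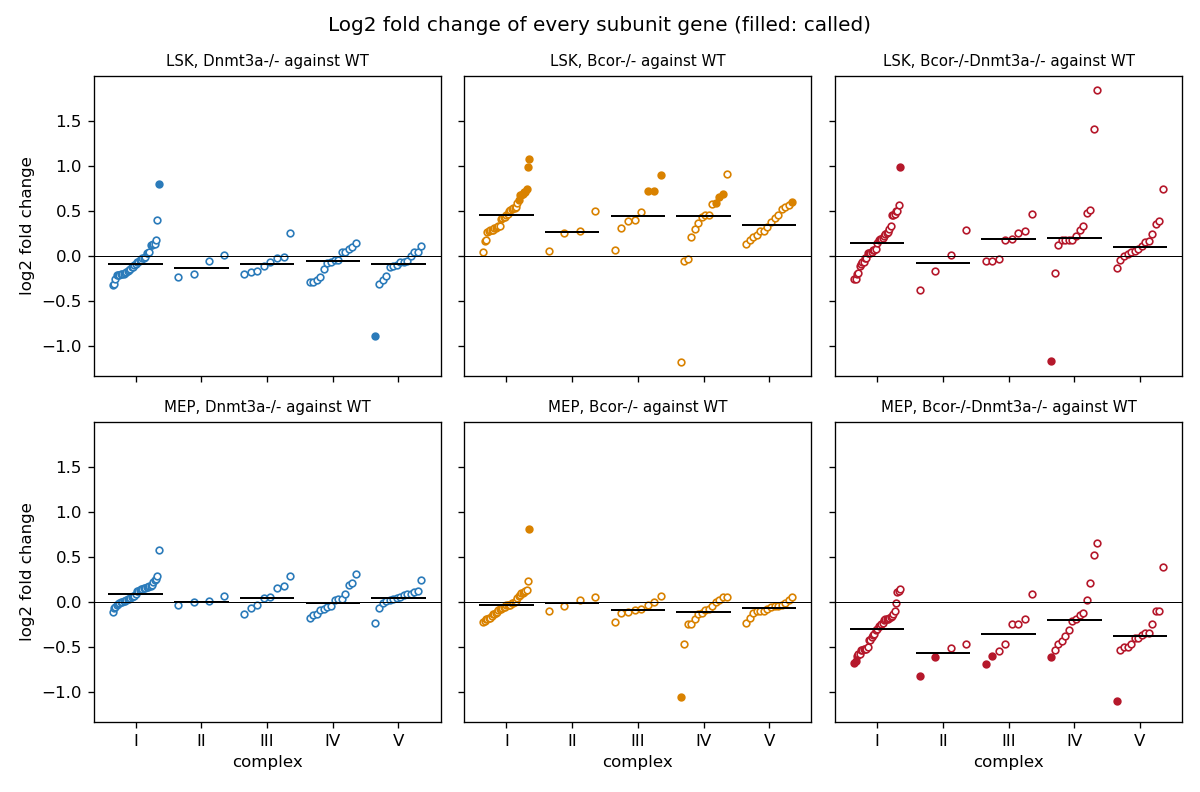
Log2 fold change against WT of the 75 subunit genes, 1 circle per gene ordered by value within each complex, with the complex median as a bar. Filled circles passed the call rule. The complex I circles of Bcor-/- LSK all lie above 0, those of complex II in Bcor-/-Dnmt3a-/- MEP all lie below 0, and the lowest filled circle of complex IV in Bcor-/-Dnmt3a-/- LSK is Ndufa4, at -1.17.

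In double knockout MEP every called member was lower. None of 84 members rose and 12 fell, where 18.5% of all genes rose and 12.4% fell by the same rule. The 14.3% of members that fell is close to the share of all genes, so the count alone is no result about the members. In sign, 75 of 84 had a negative log2 fold change, with a median of -0.37 (0.775-fold), while the median of all genes was 0.02. At an adjusted p under 0.05, 33 members were lower and 0 higher, against 17.0% of all genes that were lower, and both libraries lay below every WT library for 43 members, against 25.8% of all genes. The members summed to 13120 and 14690 FPKM, against 15960 to 20000 in WT. In the shortest of the 4 length classes the median was -0.15 over all genes and -0.33 over its 66 members, and 9 fell after the length and GC correction.

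Complex II, the succinate dehydrogenase shared with the citric acid cycle, was the complex with the lowest median (-0.57), and all 4 of its members were lower at an adjusted p under 0.05. Sdhd, a membrane anchor, was listed at 181.2 and 181.4 FPKM in double knockout MEP and at 312, 355 and 298 in WT (log2 fold change -0.82, SE 0.113, adjusted p = 0.00154). Sdhb, the iron-sulfur subunit, was at 135 and 109.5 FPKM against 181, 212 and 170.1 (-0.62, adjusted p = 0.0118). The groups did not overlap in either gene. Sdha (-0.47) and Sdhc (-0.52) were lower by less than the fold limit.

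The largest fall of any member in MEP was that of Atp5g1, 1 of the 3 genes for subunit c, which forms the rotor ring of ATP synthase. It stood at 39.6 and 40.8 FPKM in double knockout MEP, against 88.3, 105.6 and 71.5 in WT, 89.7, 99.0 and 89.7 in Dnmt3a-/- and 80.4 and 85.5 in Bcor-/-. Its 2 double knockout libraries were close to each other and far below the other 8 (-1.10, SE 0.150, adjusted p = 0.00147). Atp5g3, which encodes the same mature protein at a higher level, was at 435 and 386 FPKM against 554.2, 638 and 553.4 (-0.50, adjusted p = 0.0124). Atp5g2 was listed at 0 in all WT and double knockout MEP libraries, which may be a failed estimate and need not mean a silent gene. The catalytic subunits Atp5a1 and Atp5b had log2 fold changes of -0.50 (adjusted p = 0.0157) and -0.35 (adjusted p = 0.161).

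In complex III 2 of 8 members fell and in complex I 3 of 35, against 12.4% of all genes. The complex I share of 8.57% is under that, so its count is no result about the complex. Uqcrc1, a core protein of complex III, was at 154 and 201.5 FPKM against 277.6, 330.2 and 250.7 in WT (-0.69, adjusted p = 0.00997), and Uqcr10 also fell (-0.60). In complex I, Ndufb2 was at 73.0 and 50.9 FPKM against 96.0, 110.8 and 90.1 (-0.68, adjusted p = 0.0138). Its log2 fold change was -0.43 without the second double knockout library, under the fold limit, and -0.94 without the first. Ndufs6 (-0.66) and Ndufv1 (-0.60) fell as well. The value of Ndufv1 was -0.35 without the first double knockout library, under the fold limit, and -0.85 without the second. These 5 genes had every double knockout library under every WT library, as had 25.8% of all genes. The highest log2 fold changes in these complexes were 0.14 for Ndufa6 and 0.08 for Uqcrh, the hinge protein of complex III. Ndufa6 was at 157.2 and 156.7 FPKM against 136.5 to 147.7, and Uqcrh at 552 and 600.6 against 480.5 to 651.4, and neither was called. The assembly factors Ndufaf7 (-0.68), Ndufaf2 (-0.68) and Ndufaf6 (-0.60) fell too. In complex IV, Ndufa4 was the only one of 14 called, at 331 and 365 FPKM against 519, 588 and 492 in WT (-0.61, adjusted p = 0.00372).

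Complex IV was otherwise the least uniform in double knockout MEP, with 4 of 14 members positive. Of its nuclear subunits, Cox5a was at 235 and 188 FPKM against 299.5, 328 and 291 in WT (-0.54, adjusted p = 0.0143), and Cox5b was at 91.6 and 134 against 96.7 to 123. Cox5a was below WT in both libraries and Cox5b overlapped it. Cox6b2, a testis form of a subunit, was listed at 51.0 FPKM in the first library and 200.7 in the second, against 159, 163 and 107 in WT. Its usual form Cox6b1 was at 459 and 454 FPKM against 600.1, 723 and 538 (-0.43, adjusted p = 0.0520). Cox7a2l ran the other way between the libraries, at 306 FPKM in the first and 116 in the second, against 160.2, 169 and 159 in WT. Cox7a1, a muscle form, was at 4.51 and 0.962 FPKM against 0.773 to 1.47, while its counterpart Cox7a2 was at 205 and 252 against 260.4, 282 and 208. Cox6a1 was at 325 and 517 FPKM against 445, 549.9 and 382, and Cox6a2 was at 0.729 and 4.22 against 0.588 to 2.13. Cox8a was at 328 and 449 FPKM against 429, 488 and 401, and none of these isoforms was called. Across all members, 11 of 84 were over 1.5-fold apart between the double knockout MEP libraries, compared with 2 between the Bcor-/- libraries.

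The 12 falls in MEP became 5 without the second WT library, which had the highest members' sum (20000 FPKM), and 6 with 1 variance per genotype. They became 24 with quantile normalization, 31 with median centring and 26 with an equal sum of FPKM without globins. No member was called higher under any of these. Markers of other cells moved with the result: 7 of 10 neutrophil and monocyte genes, 5 of 6 macrophage genes (722 and 26.5 FPKM summed, against 6.08 to 10.1 in WT) and 5 of 6 tested lymphoid genes (1075 and 215 FPKM, against 77.1 to 84.4) rose, while MEP markers summed to 1914 and 3864 FPKM against 3633 to 4775. Megakaryocyte genes summed to 17.8 and 71.2 FPKM against 86.4 to 334.5, and 2 of 6 tested fell. Without the first double knockout library, which had the most macrophage and least MEP marker RNA, 17 members fell. Without the second, which had the most erythroblast and neutrophil RNA, 15 fell and 2 rose. Their part in the result was not tested.

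**Figure D3:**
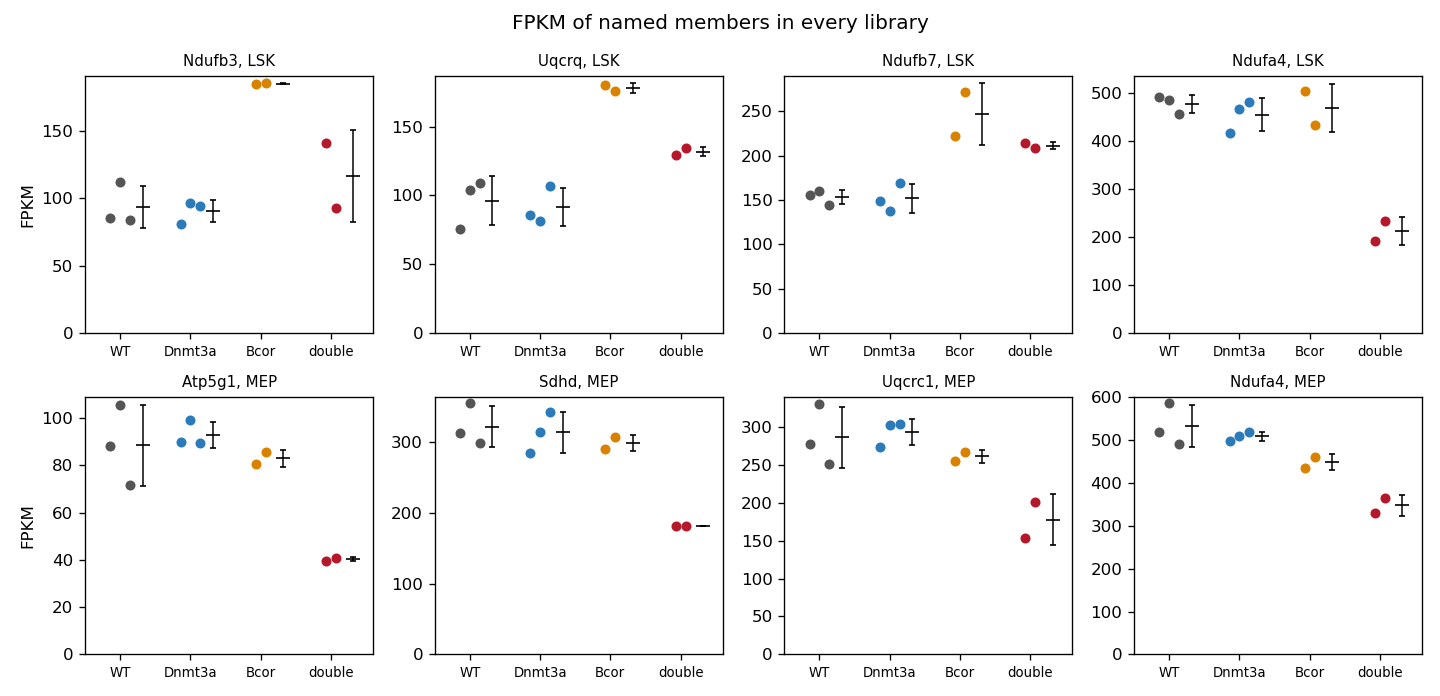
FPKM of 7 named members, 1 point per library, with the mean and SD beside each group (WT and Dnmt3a-/- n = 3, Bcor-/- and Bcor-/-Dnmt3a-/- n = 2; double stands for the double knockout); Ndufa4 is shown in both populations. Ndufb3, Uqcrq and Ndufb7 are highest in Bcor-/- LSK, and in each MEP panel (Atp5g1, Sdhd, Uqcrc1 and Ndufa4) the double knockout is the lowest genotype, with no overlap with WT. Ndufa4 is also lowest in the double knockout among the LSK libraries.

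The double knockout effect differed between the populations of the same mice. Of 84 members, 50 had a positive log2 fold change in LSK and a negative one in MEP, 25 were negative in both, 8 positive in both and 1 negative in LSK alone. These counts by sign depend on the scaling. Positive in LSK were 58 members here, 40 with quantile normalization, 42 with the equal sum of FPKM without globins and 45 with median centring. In the test of the difference, 23 members were called with a higher effect in LSK and 0 with a lower one, against 11.0% and 16.6% of all genes. With the adjusted p, 29 were above 0 and 1 below. Sdhb had the smallest p, with a log2 fold change of 0.29 in LSK and -0.62 in MEP (difference 0.90, SE 0.131, adjusted p = 0.00418). In LSK both double knockout libraries lay above every WT library and in MEP both lay below, although the LSK change did not pass the call. Such positions are common, at 3053 of 11952 genes above WT in LSK and 25.8% of genes below WT in MEP. Sdhd (difference 0.83), Atp5g1 (1.05), Ndufb10 (0.83) and Ndufs1 (0.81) followed, with adjusted p from 0.00476 to 0.0157. Complex I had 13 of the 23 calls, complex III 4, complex II 2, complex V 2, complex IV 1 and the genes that are not subunits 1. Ndufa4 was the only member with an adjusted p under 0.05 in the opposite direction (-0.56, adjusted p = 0.0278), as it fell by more in LSK than in MEP. The count of 23 became 13 with 1 variance per genotype, 15 after the length and GC correction and 38 without the second double knockout mouse.

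**Figure D4:**
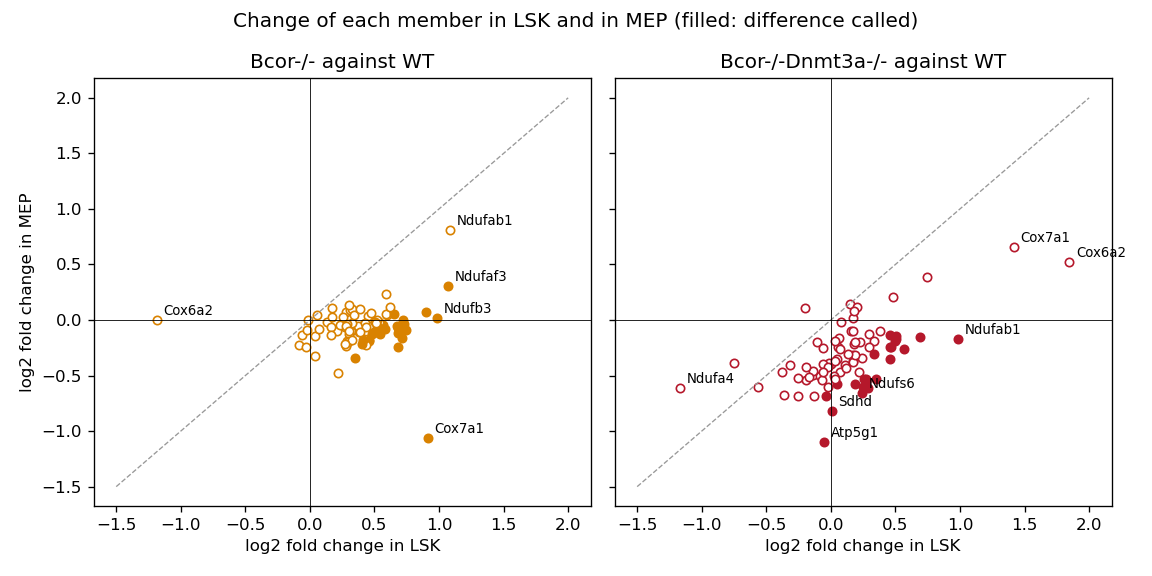
Log2 fold change in LSK (horizontal axis) and MEP (vertical axis) of the 84 members for Bcor-/- (left) and Bcor-/-Dnmt3a-/- (right), with a dashed line of equal change. Filled circles passed the call rule for the difference. Nearly all circles lie under the dashed line, 82 of 84 for Bcor-/- and 81 of 84 for Bcor-/-Dnmt3a-/-, and Ndufa4 lies above it on the right.

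Dnmt3a loss alone moved few members. In Dnmt3a-/- LSK, Ndufab1 rose and Atp5l fell, against 0.209% and 0.234% of all genes, and neither passed the adjusted p (1 for both). Ndufab1 was at 2.34, 1.76 and 3.96 FPKM against 0.608, 2.07 and 0.774 in WT, and Atp5l at 0, 1.62 and 1.94 against 3.36, 1.89 and 2.86. Both overlap WT and are listed near the minimum, and neither was called without the first Dnmt3a-/- library or the third WT library. In Dnmt3a-/- MEP, limma called none of the 84 in either direction, against 0.201% and 0.210% of all genes, while the unadjusted p alone was under 0.05 for 3. The medians over the members were -0.06 in LSK and 0.04 in MEP. An exact permutation test of a single gene cannot go under a two-sided p of 0.1 with 3 libraries against 3 or with 2 against 3.

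Genes that build or feed the chain were read from lists apart from the members. In Bcor-/- LSK, 17 of 76 mitochondrial ribosome genes rose and none fell (median 0.41), as did 6 of 22 mitochondrial import genes (median 0.40), 6 of 47 assembly factors (median 0.24, 7 of the 47 being members) and 2 of 22 other respiratory chain genes (median 0.33). Over all genes 7.20% rose, and the share of the last list is close to that. It includes Cyc1, cytochrome c1 of complex III (169.6 and 190.0 FPKM against 103, 108 and 122 in WT, log2 fold change 0.69, adjusted p = 0.0192). None of 16 citric acid cycle genes was called (median 0.19). Of 20 tested regulators of mitochondrial genes, Polg, the mitochondrial DNA polymerase, rose and Gabpb1, a partner of the ETS factor Gabpa, fell. Nrf1 itself had a log2 fold change of 0.05 there and Yy1 -0.26.

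In double knockout MEP these lists all had medians below 0, with that of the regulators the nearest to it. Over all genes 12.4% fell and 18.5% rose there. Of the mitochondrial ribosome genes, 31 of 76 fell (median -0.53), of the import genes 9 of 22 (median -0.53), of the assembly factors 12 of 47 (median -0.40), of the citric acid cycle genes 7 of 16 (median -0.48) and of the other respiratory chain genes 12 of 21 (median -0.60), and none of them rose. Cyc1 was at 178 and 189 FPKM against 280.0, 376 and 262 in WT (-0.72, adjusted p = 0.0104), while Cox4i1, the main nuclear complex IV subunit that the symbol rule leaves out, was at 604 and 746 against 769, 890.0 and 691 (-0.21, adjusted p = 0.290). The 20 tested regulators had a median of -0.02, and no larger share of them than of all genes was called in either direction. Pprc1, a relative of the PGC-1 coactivators (-0.82), and Polrmt, the mitochondrial RNA polymerase (-0.79), fell and Gabpb1 rose (0.60). In double knockout LSK, where 15.0% of all genes rose and 13.3% fell, 3 of 20 regulators rose (Gabpb2, Polg and Ppargc1b) and 2 fell (Gabpb1 and Tfb1m), shares close to those of all genes. In that population 0 of 76 ribosome genes rose and 1 fell, and 1 of 22 import genes moved each way. Of the other respiratory chain genes 2 of 22 fell, of the citric acid cycle genes 1 of 16 fell, and 2 of 47 assembly factors moved each way. In Bcor-/- MEP and in both Dnmt3a-/- populations none of these lists held a called gene.

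Promoters are shown because the nuclear respiratory factors are known to bind near genes of the respiratory chain. The part of these factors in the changes was not tested. RefSeq promoter windows (GRCm38.p6, 250 bases before to 50 after the start) were matched for 69 of the 84 members by symbol. The windows were searched on both strands for GCGCATGC (core of the NRF1 motif), CCGGAA (core of ETS motifs such as that of GABP) and AAGATGGC (core of the YY1 motif). GCGCATGC can overlap its own reverse complement. GCGCATGC was in a window of 11 of 69 members (15.9%) and of 3.05% of all 27025 genes with a window, CCGGAA in 26 of 69 (37.7%) and 16.7% of all genes, and AAGATGGC in 9 of 69 and 3.19% of all genes. Among the members that rose in Bcor-/- LSK, 15 had a window, of which 3 held GCGCATGC, 6 CCGGAA and 2 AAGATGGC. Among those lower at the adjusted p in double knockout MEP, 29 had a window, of which 6, 11 and 4 did. A match is a description of letters. The 250 bases before the start of 4 genes that rose in Bcor-/- LSK and of 2 that fell in double knockout MEP are given 5′ to 3′ on the gene's strand, with matches in capitals. These 6 were chosen after their matches were seen.
Cox6a1, chr5:115348959-115349208, minus strand: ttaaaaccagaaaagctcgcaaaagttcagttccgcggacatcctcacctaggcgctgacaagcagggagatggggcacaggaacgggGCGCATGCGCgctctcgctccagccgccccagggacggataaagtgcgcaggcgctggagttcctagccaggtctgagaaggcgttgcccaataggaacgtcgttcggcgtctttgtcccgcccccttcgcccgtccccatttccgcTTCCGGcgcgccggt
Atp5k, chr5:108434400-108434649, minus strand: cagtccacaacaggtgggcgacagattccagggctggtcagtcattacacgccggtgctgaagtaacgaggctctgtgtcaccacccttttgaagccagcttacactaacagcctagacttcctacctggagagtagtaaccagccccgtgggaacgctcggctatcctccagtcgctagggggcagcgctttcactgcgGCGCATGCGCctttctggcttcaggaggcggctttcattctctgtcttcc
Ndufb7, chr8:83566508-83566757, plus strand: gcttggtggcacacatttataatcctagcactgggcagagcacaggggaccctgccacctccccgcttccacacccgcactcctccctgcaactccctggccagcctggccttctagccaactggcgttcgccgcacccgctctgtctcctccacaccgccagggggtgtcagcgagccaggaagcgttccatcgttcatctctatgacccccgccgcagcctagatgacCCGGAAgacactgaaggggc
Uqcr11, chr10:80406822-80407071, minus strand: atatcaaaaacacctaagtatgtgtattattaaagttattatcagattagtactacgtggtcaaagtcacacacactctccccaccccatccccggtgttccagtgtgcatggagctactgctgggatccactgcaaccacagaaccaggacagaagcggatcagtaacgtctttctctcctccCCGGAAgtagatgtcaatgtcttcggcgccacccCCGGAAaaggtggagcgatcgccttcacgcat
Sdhb, chr4:140961021-140961270, plus strand: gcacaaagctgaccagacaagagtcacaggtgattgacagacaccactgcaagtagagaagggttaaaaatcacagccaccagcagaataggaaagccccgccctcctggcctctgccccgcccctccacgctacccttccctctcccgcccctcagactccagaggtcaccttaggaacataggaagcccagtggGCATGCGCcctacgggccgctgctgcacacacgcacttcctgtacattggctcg
Sdhd, chr9:50603850-50604099, minus strand: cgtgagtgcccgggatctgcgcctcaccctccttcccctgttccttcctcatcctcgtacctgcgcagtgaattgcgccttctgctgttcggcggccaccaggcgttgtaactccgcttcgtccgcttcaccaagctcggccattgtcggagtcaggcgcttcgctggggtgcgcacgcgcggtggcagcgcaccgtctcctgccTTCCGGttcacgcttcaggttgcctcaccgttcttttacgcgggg

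In Cox6a1 and Atp5k the capitals mark GCGCATGC and its reverse complement in 1 overlapping run, in Cox6a1 also the reverse complement of CCGGAA. In Ndufb7 and Uqcr11 they mark CCGGAA, in Sdhb the reverse complement of GCGCATGC and in Sdhd that of CCGGAA. The counts above also include matches outside the printed bases, which are CCGGAA for Atp5k and Sdhb and GCGCATGC for Uqcr11.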

How the data were processed

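Polyadenylated RNA of sorted LSK and MEP cells was analysed in 20 libraries, 10 per cell type and 4 genotypes. Both deposited tables, 1 for LSK and 1 for MEP, hold FPKM; the submitters' processing notes name STAR 2.5.1b, SAMtools 1.9, Cufflinks 2.2.1 and mm9, without their roles, and strand handling is not given in the sources used here. FPKM is scaled for gene length and library, and the median log2 ratio was near 0 in every library, so totals of RNA cannot be compared. Sequences come from RefSeq on another build, and no other coordinate is printed.

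Values were tested as log2(FPKM + 1) with limma 3.58.1 in R 4.3.3 (mean-variance trend, genes averaging 1 FPKM or more, 1 mean per genotype, all 10 libraries of a cell type), each mutant against WT. A fold change on this scale understates the change of low genes. The study's thresholds were used for a call (1.5-fold and 0.05 without adjustment); Benjamini-Hochberg adjusted p-values cover all tested genes. LSK and MEP libraries were paired through the labelled mouse (their deviations from the genotype means correlated at 0.00065 to 0.559), and the differences of effects were fitted on LSK minus MEP per mouse. The scripts were tested on simulated data. Low values gave a relative depth of 0.789 to 1.31 of the first WT library in LSK and 1 to 1.61 in MEP. Figures used Python 3.11.15 and matplotlib 3.10.9.

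Genes named with values are, per complex, the members with the highest and lowest double knockout change in each cell type, the 5 smallest p in Bcor-/- LSK, called Dnmt3a-/- members, the 5 smallest p of the double knockout difference, fixed core subunits and isoform pairs; others named were chosen after their values were seen. The members and lists were chosen with earlier results of these data known. Alternatives were another pseudocount (0.1), no filter or a minimum of 5 FPKM, quantile normalization, median centring, only the compared genotypes, a replicate block, no trend, 1 variance per genotype, other call rules and leaving out each library; scaling to an equal sum of FPKM without globins and a correction for transcript length and GC content (natural splines on GENCODE vM21 transcripts, 99.4% of LSK and 99.5% of MEP genes matched) were added after seeing the data.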

Additional observations from a re-analysis of the deposited data

Results flagged for a closer look

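For 17 results among the named members, the effect in LSK differed from that in MEP by the test of the difference itself (limma on LSK minus MEP per mouse, adjusted p under 0.05). For the double knockout the differences were 1.05 for Atp5g1, 0.52 for Atp5g3, 0.55 for Cox6b1, -0.56 for Ndufa4, 1.16 for Ndufab1, 0.84 for Ndufaf3, 0.83 for Ndufb10, 0.53 for Ndufb3, 0.70 for Ndufb7, 0.81 for Ndufs1, 0.90 for Sdhb, 0.83 for Sdhd, 0.65 for Uqcrc1, 0.38 for Uqcrfs1 and 0.71 for Uqcrq. For Bcor-/- they were 0.87 for Ndufb2 and 0.97 for Ndufb3. Ndufa4 was the exception in sign: it fell in both populations, and by more in LSK (-1.17) than in MEP (-0.61). Groups of 2 and 3 libraries are too small to look for single outlying libraries.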

How the results depend on the processing

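Single genes were followed through the alternatives for 37 changes, those with a call or an adjusted p under 0.05 among the members named by the rule, and the changes of other single genes were not. Of the 846 values this gave, 727 kept direction and side of the threshold, 70 lost the call, 49 gained it and none changed sign. The other call rules reuse the main fit, so no sign could change under them. Changes with an adjusted p under 0.05 but below the fold limit had to gain the call there. Calls without such an adjusted p had to lose it under the adjusted rule. Counts called moved as follows; the cause was not tested except where fewer genes or another call rule sets it. With an unadjusted p at any fold, members called were 17 in double knockout LSK, 47 in Bcor-/- LSK, 6 in Dnmt3a-/- LSK, 42, 4 and 3 in the same genotypes of MEP, and 49 and 50 for the LSK minus MEP differences of double knockout and Bcor-/-. With the adjusted p at any fold they were 10 in double knockout LSK, 0 in Dnmt3a-/- LSK, 33 in double knockout MEP, 0 in Bcor-/- MEP and 2 for the Bcor-/- difference. Quantile normalization gave 7 in Bcor-/- LSK, 1 in Dnmt3a-/- LSK, 24 in double knockout MEP, 1 in Dnmt3a-/- MEP and 10 for the Bcor-/- difference, and median centring 31 in double knockout MEP. With 1 variance per genotype, 1 was called in double knockout LSK, 6 in double knockout MEP and 13 for its difference. The equal sum of FPKM without globins gave 5 in Bcor-/- LSK, 26 in double knockout MEP and 9 for the Bcor-/- difference, and the length and GC correction 8 in Bcor-/- LSK, 1 in Dnmt3a-/- MEP, 15 for the double knockout difference and 10 for that of Bcor-/-. In Dnmt3a-/- LSK, a pseudocount of 0.1 gave 1, no filter 0, a minimum of 5 FPKM 0 and only the compared genotypes 1; in Dnmt3a-/- MEP the pseudocount of 0.1 gave 1, and in Bcor-/- MEP the minimum of 5 FPKM gave 1. Leaving out each library in turn gave 3 to 9 in double knockout LSK, 12 to 24 in Bcor-/- LSK, 0 to 2 in Dnmt3a-/- LSK, 5 to 18 in double knockout MEP, 1 to 3 in Bcor-/- MEP, 0 to 1 in Dnmt3a-/- MEP, and 19 to 38 and 14 to 32 for the differences of double knockout and Bcor-/-. A single arm left with 1 library was assumed to vary like the others.

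The median log2 fold change of double knockout LSK reversed with quantile normalization, to -0.023 over all members, -0.024 in complex I and -0.0073 in complex III, and in complex I to -0.0073 with the equal sum of FPKM without globins. That of complex V, 0.09, became -0.06 with the equal sum, -0.04 with quantile normalization and -0.03 without the first double knockout library, and that of complex II, -0.08, became 0.06 without the second.

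The replicate numbers do not pair libraries of different genotypes (correlations of same-numbered deviations from -0.193 to 0.336). With the replicate block, 6 members were called in double knockout LSK, 17 in Bcor-/- LSK, 0 in Dnmt3a-/- LSK, 14 in double knockout MEP, 2 in Bcor-/- MEP and 0 in Dnmt3a-/- MEP. Without the pairing by mouse the differences gave 23 and 27 calls, as with it. Depth is unknown, so counting error was not computed, and low-listed members are the least precise.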
